A study of Homo sapiens with 15 samples.

Results

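The comparison sets ZR-75-1 cells given MPA against ZR-75-1 cells given vehicle, and it describes the genes that rose and fell across the genome by their functions. ZR-75-1 is an established human breast cancer line of luminal type that carries the estrogen and progesterone receptors. MPA is the usual abbreviation of medroxyprogesterone acetate, a synthetic progestin, and the labels give the abbreviation alone. The 3 MPA arrays come from cells given 10 nM MPA for 6 h. The 3 vehicle arrays come from cells given 0.1% ethanol for 6 h, and their titles also call them untreated. Which solvent carried the MPA is not stated. These 6 arrays were chosen by title from a series of 15, whose other arrays hold cells of the same line given 10 nM PROG, DHT or DEX for 6 h (usually progesterone, dihydrotestosterone and dexamethasone), with 3 arrays per compound. Of the 34878 deposited probe sets, 14841 are paired with 1 gene symbol, and these cover all 14361 genes described here.

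All cells belong to 1 line, and nothing in the labels says whether the 3 arrays of a group came from separate cultures, so a p-value here speaks of array-to-array spread alone, part or all of which may be technical. Array medians lay between 3.69 and 3.73 on the log2 scale, and the number of arrays limits the precision. Arrays correlated with r = 0.9971 to 0.9976 within MPA and 0.9973 to 0.9975 within vehicle, against 0.9953 to 0.9963 between an MPA and a vehicle array. The luminal label was checked against its markers. None of the 15 measured luminal epithelial markers had both group means at or under the array medians, and KRT18 averaged 12.10 with MPA and 12.05 with vehicle. Of these 15, 4 rose and 2, ESR1 and FOXA1, fell. Of 5 basal epithelial markers, 3 were under the medians in both groups, EGFR rose and OXTR fell. Of the other cell types, 3 of 5 fibroblast markers and 5 of 8 blood and endothelial markers were under the medians in both groups. With limma, 0 fibroblast and 0 blood or endothelial markers changed, and at an unadjusted p under 0.05 there was 1 in each list.

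Progestins act mainly through the progesterone receptor, a transcription factor of the nuclear receptor family that binds DNA once it holds its hormone and then raises or lowers the transcription of its target genes. MPA is also known to bind the glucocorticoid and androgen receptors, which recognise a similar DNA element. In breast epithelium, progestins are known for their part in lobular growth and in the control of the response to estrogen. At 6 h the transcripts of early target genes and of genes downstream of them are measured together.

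More genes rose with MPA than fell, and the increases were larger. Every change below is the log2 level with MPA minus the log2 level with vehicle, ± the standard error of limma's fit, for 3 arrays in each group, and a probe set or gene rose or fell where the Benjamini-Hochberg adjusted p was under 0.05. Of the 14841 probe sets, 880 changed, a share of 5.93%, and 168 (1.13%) changed by at least 1.5-fold. Counted by gene, 599 of 14361 rose (4.17%) and 269 fell (1.87%), each gene being read from its brightest probe set. Of 27 genes with several probe sets and a call in any of them, 2 had all probe sets called the same way. In the others at least 1 probe set was not called, and 0 genes were called both ways. The genes that rose had a median change of 0.38, and those that fell a median of -0.29, against -0.0033 over all genes tested. At least 2-fold changes comprised 42 genes that rose and 2 that fell, AMIGO2 and HEY2. Changes under 1.25-fold made up 39.1% of the raised and 62.1% of the lowered genes. Without vehicle 1, the number of lowered probe sets was 176, against 270 over all arrays. A rise or fall held with each of the 6 arrays left out for 407 genes that rose (2.83%) and 125 that fell (0.87%), and a gene named below is 1 of these unless its text says otherwise. Protein-coding genes made up 566 of the raised and 253 of the lowered genes. In bulk RNA, fewer cells that use a gene and less RNA per cell cannot be told apart.

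**Figure D1:**
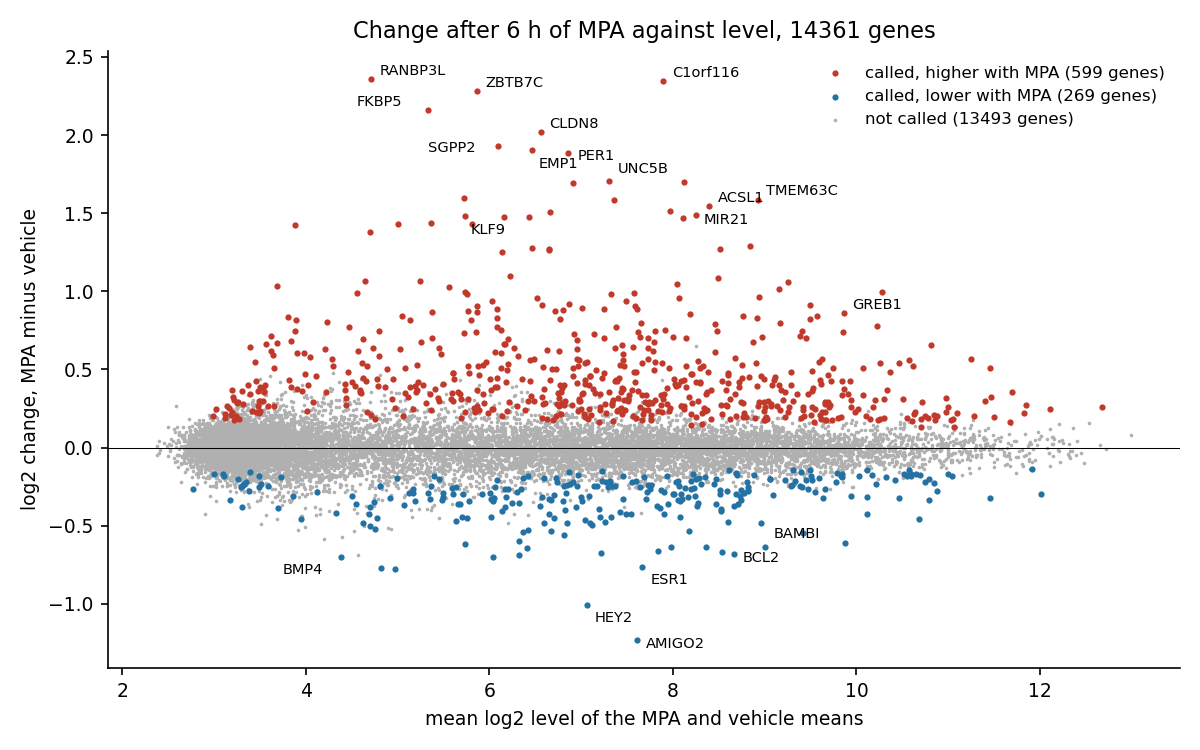
Change of each of the 14361 genes, MPA minus vehicle (log2, vertical axis), against its mean level over both groups (log2, horizontal axis); red points rose (599), blue points fell (269) and grey points were not called. Increases reached 2.36 on the log2 scale (RANBP3L), and decreases reached -1.23 (AMIGO2).

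Several of the 42 genes that rose at least 2-fold are described first. SGPP2, a phosphatase of sphingosine 1-phosphate, was at 7.10, 6.92 and 7.17 in the MPA arrays, against 5.10, 5.06 and 5.24 in the vehicle arrays. The change was 1.93 ± 0.11 (adjusted p = 3.82e-08), and the groups did not overlap. EMP1, an epithelial membrane protein, was at 7.34, 7.41 and 7.50 in the MPA arrays, against 5.47, 5.66 and 5.40 in the vehicle arrays. Each MPA array lay above each vehicle array, with a change of 1.91 ± 0.089 (adjusted p = 6.31e-09). UNC5B, a receptor for the guidance cue netrin, was at 8.20, 8.16 and 8.12 in the MPA arrays, against 6.46, 6.44 and 6.46 in the vehicle arrays. Its change was 1.71 ± 0.08 (adjusted p = 6.68e-09), with vehicle arrays that lay close together. GREB1L, a relative of the estrogen target GREB1, measured 7.65, 7.80 and 7.82 with MPA and 6.09, 6.0 and 6.10 with vehicle, a change of 1.69 ± 0.087 (adjusted p = 1.43e-08) with no overlap. CSRNP1, a nuclear protein, measured 6.52, 6.61 and 6.44 with MPA and 4.86, 4.94 and 4.98 with vehicle, and rose by 1.60 ± 0.063. TMEM63C, a relative of stretch-sensitive ion channels, averaged 9.72 ± 0.035 with MPA and 8.13 ± 0.055 with vehicle (SD) and rose by 1.59 ± 0.05. ANKRD22, an ankyrin repeat protein, averaged 8.15 ± 0.067 with MPA and 6.57 ± 0.12 with vehicle and rose by 1.58 ± 0.06. In each of these genes all MPA arrays were above all vehicle arrays.

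Decreases were smaller, and AMIGO2 had the largest among the genes tested. AMIGO2, a leucine-rich adhesion protein, was at 6.76, 7.25 and 6.98 in the MPA arrays, against 8.24, 8.31 and 8.13 in the vehicle arrays. It fell by 1.23 ± 0.10 (adjusted p = 1.81e-06), and its MPA arrays were spread more widely than its vehicle arrays without reaching them. PCED1B, a little studied esterase-like gene beside AMIGO2, was at 4.43, 4.76 and 4.55 in the MPA arrays, against 5.42, 5.35 and 5.30 in the vehicle arrays. It fell by 0.78 ± 0.12 (adjusted p = 0.000639). LRRK2, a large kinase best known from inherited Parkinson disease, was at 5.83, 5.73 and 5.51 in the MPA arrays, against 6.53, 6.21 and 6.44 in the vehicle arrays. The fall was 0.70 on the log2 scale (adjusted p = 0.000144), and the lowest vehicle array still lay above the highest MPA array. PDGFD, a platelet-derived growth factor, averaged 8.21 ± 0.099 with MPA and 8.87 ± 0.12 with vehicle and fell by 0.67 (adjusted p = 2.31e-05). TRERF1, a zinc finger regulator of steroid enzyme genes, averaged 6.09 ± 0.038 with MPA and 6.73 ± 0.078 with vehicle and fell by 0.64 (adjusted p = 6.31e-06). POU2AF3, a partner of POU factors, averaged 5.98 ± 0.23 with MPA and 6.67 ± 0.18 with vehicle and fell by 0.69 (adjusted p = 0.00115).

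**Figure D2:**
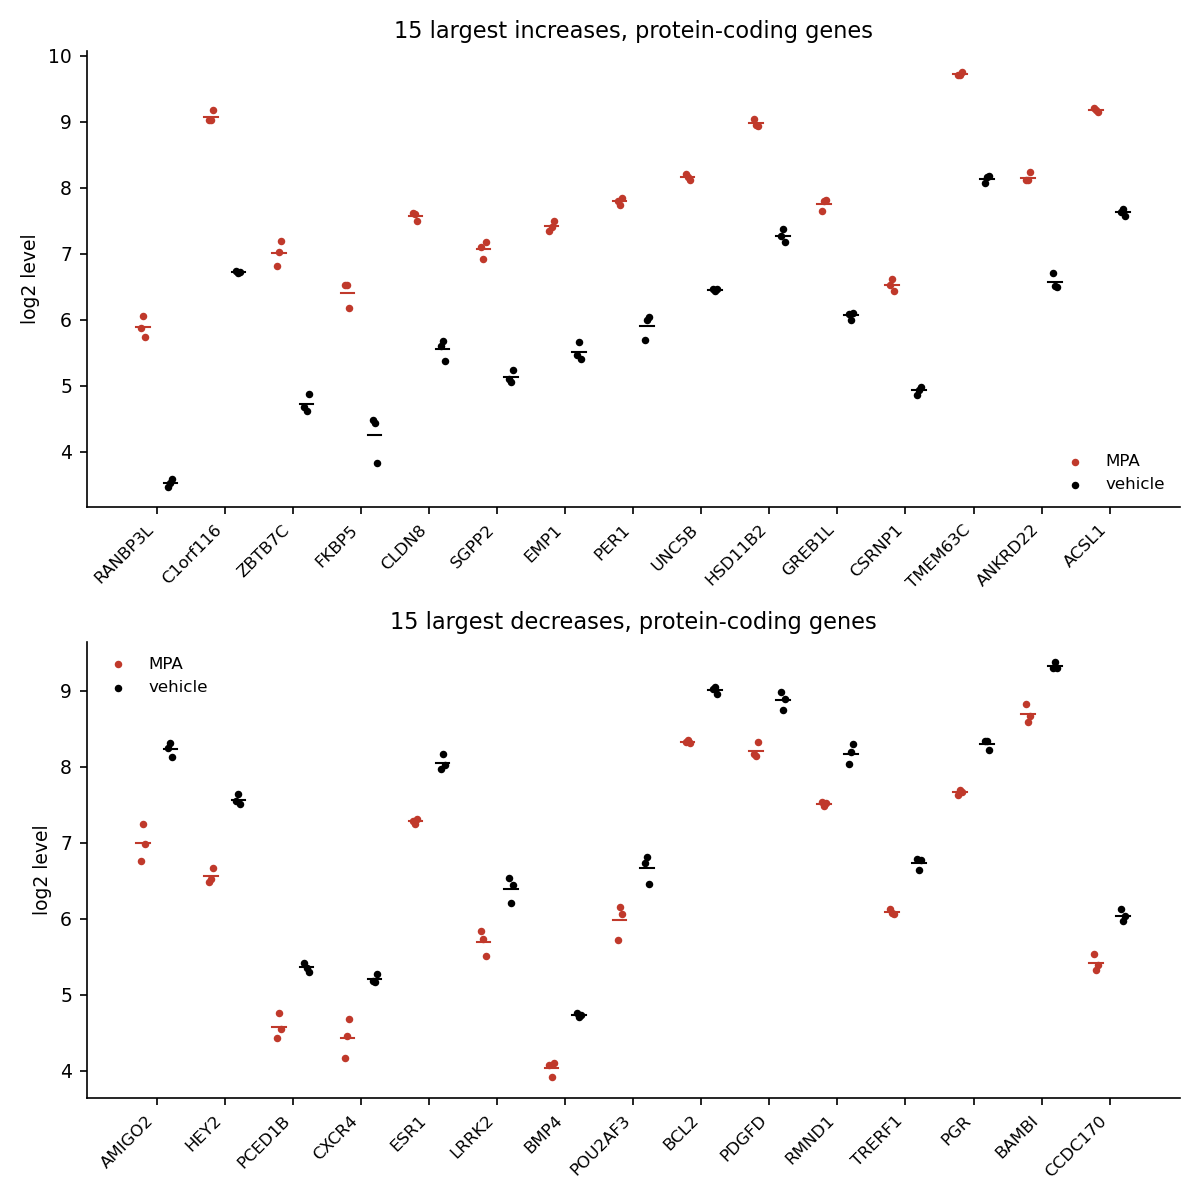
Level on each array (log2, vertical axis) of the 15 largest increases (upper panel) and the 15 largest decreases (lower panel) among protein-coding genes whose groups do not overlap; red points are the 3 MPA arrays, black points the 3 vehicle arrays and short lines the group means. RANBP3L has the largest increase and AMIGO2 the largest decrease.

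Counts by function are read below beside the shares over all genes, 4.17% raised and 1.87% lowered. The functions are lists of gene symbols drawn up with earlier results of these data known, so the counts are descriptions and no list was tested. A gene can stand in several lists, so their counts are not separate responses. Cell type markers aside, steroid response genes had the highest share of raised genes among the broad classes, with 47 of 148 genes raised (31.8%) and 8 lowered (5.41%). Metabolic genes followed with 44 of 424 raised (10.4%), and genes of growth and survival with 32 of 393 (8.14%). Signalling genes counted 73 of 958 raised (7.62%) and 34 lowered (3.55%), and genes of membrane and adhesion 37 of 513 raised (7.21%) and 7 lowered (1.36%). Transcription factors counted 54 of 844 raised (6.4%). Lower shares of raised genes were found for chromatin genes, with 3 of 147 raised (2.04%) and 3 lowered (2.04%), and for non-coding genes, with 21 of 1623 raised (1.29%). Many of the non-coding genes lay under the array medians in both groups, as given below.

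**Figure D3:**
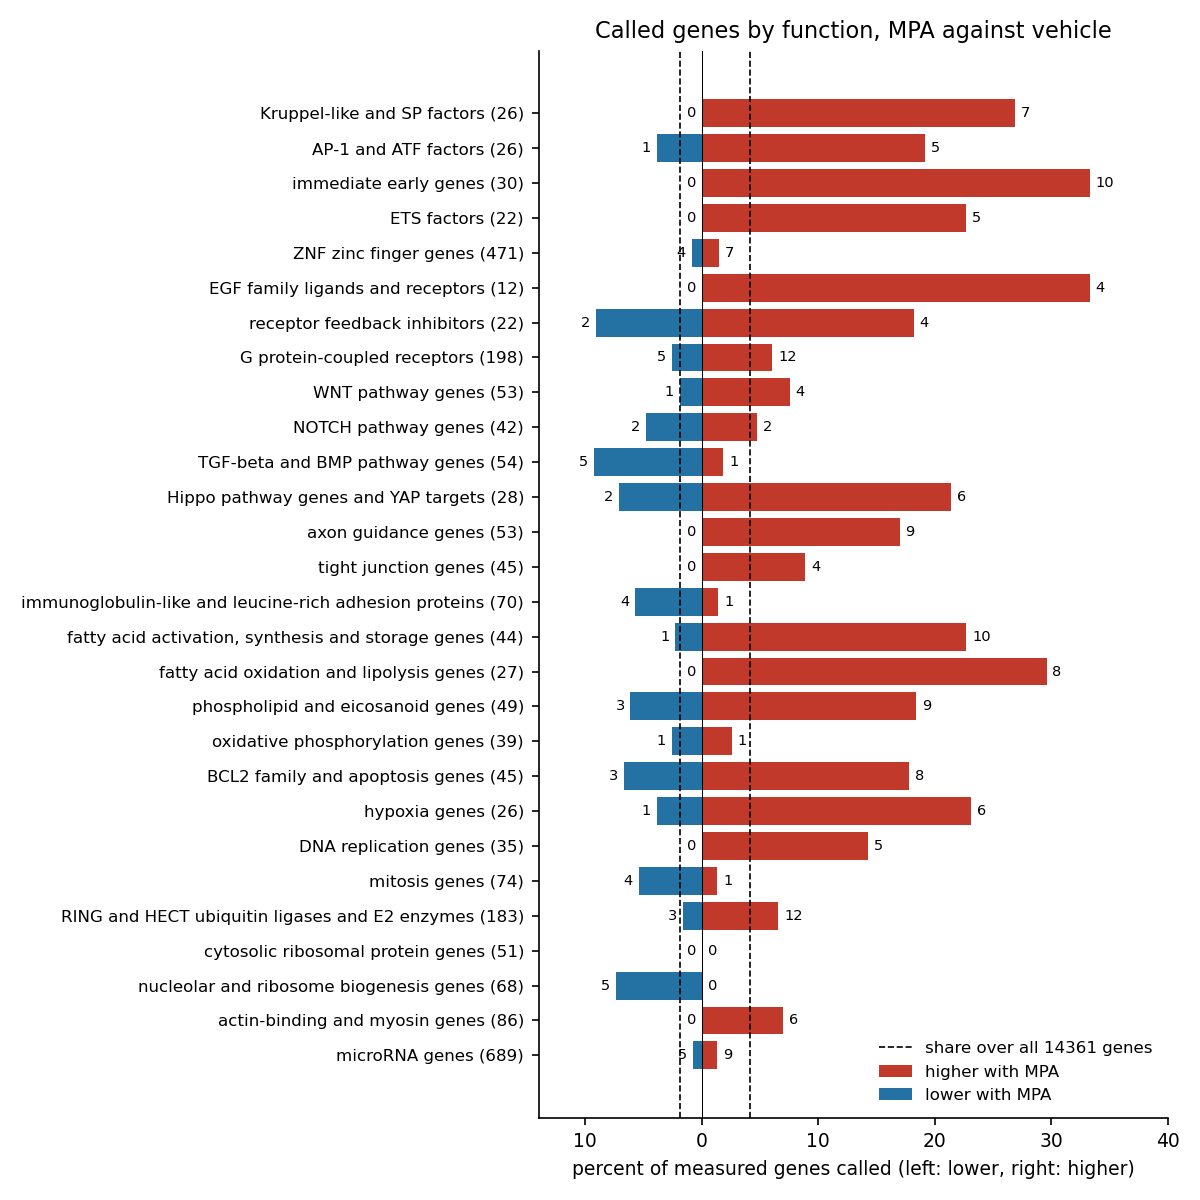
Percent of the measured genes of the functional groups on the vertical axis that rose (red bars, right of 0) or fell (blue bars, left of 0) with MPA against vehicle, with the number of genes at each bar's end and the number measured in brackets; dashed lines mark the shares over all genes, 4.17% and 1.87%. Immediate early genes and the EGF family have the longest bars on the raised side, and cytosolic ribosomal protein genes have none.

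Among steroid hormone genes, the estrogen and progesterone receptor genes fell and many targets rose. ESR1, the estrogen receptor, was at 7.29, 7.25 and 7.31 in the MPA arrays, against 7.97, 8.16 and 8.02 in the vehicle arrays, and PGR, the progesterone receptor, was at 7.63, 7.69 and 7.66 in the MPA arrays, against 8.34, 8.33 and 8.22 in the vehicle arrays. Neither gene's groups overlapped, with falls of 0.77 (adjusted p = 2.1e-06) and 0.64 (adjusted p = 3.35e-06). FOXA1, a pioneer factor that opens chromatin for these receptors, fell by 0.31 (adjusted p = 0.000625). GREB1, a co-regulator and a classic estrogen target, rose by 0.86 ± 0.047 (adjusted p = 2.08e-08), at 10.30 ± 0.072 with MPA and 9.43 ± 0.057 with vehicle. Estrogen-induced genes went both ways, with 8 of 34 raised and 3 lowered. Those raised included AGR3 and KRT19 beside GREB1, and those lowered were BCL2, PGR and MYB. PIP, a secreted protein of apocrine cells, differed by 0.22 without passing the test (adjusted p = 0.0799), and CCND1, a G1 cyclin, passed it at 0.21 (adjusted p = 0.0376) but lost it without MPA 1, MPA 3, vehicle 1 or vehicle 2. Progestin-induced genes counted 18 of 27 raised and 0 lowered, with a median of 0.44. Androgen-induced genes counted 10 of 24 raised, led by C1orf116, FKBP5, CLDN8 and NDRG1. Glucocorticoid-induced genes counted 18 of 32 raised, and CRISPLD2 was the 1 that fell, by 0.53 (adjusted p = 4.17e-05). The progestin, androgen and glucocorticoid lists share raised members, so their counts are not separate responses. FKBP5 is counted in each, and KLF9, BCL6, ERRFI1, DUSP1 and SGK1 are counted in both the progestin and the glucocorticoid list. HSD11B2, which inactivates cortisol, was at 9.04, 8.95 and 8.93 in the MPA arrays, against 7.26, 7.38 and 7.18 in the vehicle arrays, a rise of 1.70 ± 0.065 (adjusted p = 1.08e-09) with no overlap. SGK1, a kinase of sodium retention, was under the array medians in both groups (3.27 with MPA and 3.01 with vehicle), so its call cannot be read as a change.

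Kruppel-like factors, BTB zinc finger factors and STAT factors had raised members and no lowered ones over all arrays. KLF9, a Kruppel-like repressor known as a direct target of steroid receptors, was at 7.23, 6.99 and 7.29 in the MPA arrays, against 5.74, 5.65 and 5.70 in the vehicle arrays. Its change was 1.47 ± 0.092 (adjusted p = 8.95e-08), and the groups lay far apart. SP6, a relative that acts in epithelial development, averaged 7.29 ± 0.12 with MPA and 6.02 ± 0.22 with vehicle and rose by 1.27 ± 0.10 (adjusted p = 1.18e-06). In all, 7 of 26 Kruppel-like and SP factors rose and 0 fell, the others being KLF6, KLF4, KLF13, KLF5 and KLF7, at 0.26 to 0.53. SP1, the brightest member that was not called, differed by 0.03, and 1 member fell without vehicle 3. Of 44 BTB zinc finger factors, 4 rose, namely ZBTB7C, BCL6 at 1.08 ± 0.053, ZBTB10 at 0.56 ± 0.07 and ZBTB7B at 0.49 ± 0.082. STAT5A, which carries the prolactin signal to the nucleus, was at 5.44, 5.25 and 4.84 in the MPA arrays, against 4.05, 4.31 and 3.97 in the vehicle arrays. It rose by 1.07 ± 0.18 (adjusted p = 0.00181), and its neighbour and close copy STAT5B rose by 0.44 ± 0.075 (adjusted p = 0.00166). STAT3 differed by 0.13 and was not called.

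Immediate early genes, which cells switch on within minutes of a growth signal, rose in 10 of 30 measured cases (33.3%), with a median of 0.17 and 0 lowered. Of these 10, JUN, FOSL2 and JUNB are also counted as AP-1 factors and KLF6 and KLF4 as Kruppel-like factors. HBEGF is also counted in the EGF family, and DUSP1 and EGR3 among steroid response genes. JUN, an AP-1 subunit, was at 7.15, 7.42 and 7.41 in the MPA arrays, against 6.47, 6.31 and 6.45 in the vehicle arrays. It rose by 0.92 ± 0.074 (adjusted p = 1.39e-06). FOSL2, another AP-1 subunit, rose by 0.74 ± 0.046 (adjusted p = 8.71e-08), and JUNB rose by 0.61 ± 0.048 (adjusted p = 9.9e-07), both with groups that did not overlap. EGR1 rose by 0.40 ± 0.054 (adjusted p = 0.000198), and IER3, the brightest uncalled member, differed by 0.043. Among ETS factors, which include regulators of epithelial identity, 5 of 22 rose and 0 fell, with EHF at 0.56 ± 0.04 and ELF1 at 0.37 ± 0.044. Their number was 3 without MPA 1, without MPA 2 or without MPA 3. GRHL2, a grainyhead factor that keeps epithelial junction genes on, rose by 0.54 ± 0.042, and TFCP2L1, of the same family, rose by 1.25 ± 0.064 to a mean of 6.77 with MPA and 5.52 with vehicle. SNAI2, a repressor linked with epithelial-mesenchymal transition, also rose, at 5.37, 5.58 and 5.45 in the MPA arrays, against 4.57, 4.77 and 4.54 in the vehicle arrays. Its groups did not overlap (0.84 ± 0.10 (adjusted p = 7e-05)). MXD1, a repressor that competes for the partner MAX, rose by 0.83 ± 0.043 (adjusted p = 1.62e-08), whereas MYB fell by 0.24 ± 0.046 (adjusted p = 0.00427). Of 14 circadian clock genes, 3 rose, among them CRY2 at 0.51 ± 0.041 beside PER1 at 1.88 ± 0.10, and PER2 passed at 0.29 but lost its call without MPA 1, MPA 3 or vehicle 1. The 1 lowered member, NPAS2, lost its call without MPA 2, vehicle 1 or vehicle 3, and the median of the list was -0.033. CLOCK differed by -0.063 and was not called. The large ZNF family had few changes, with 7 of 471 raised and 4 lowered. Without vehicle 1 these were 4 and 0, without vehicle 2 the raised count was 3, and without MPA 1 the lowered count was 2. ZNF652 at 1.0 ± 0.056, ZNF703 at 0.86 ± 0.054 and ZNF689 at 0.75 ± 0.087 rose with each array left out.

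The EGF family, whose ligands activate ERBB receptor kinases, had 4 of 12 members raised and 0 lowered, with a median of 0.018. Among the ligands, EPGN (epigen) was at 6.45, 6.57 and 6.55 in the MPA arrays, against 5.90, 5.35 and 5.66 in the vehicle arrays. It rose by 0.89 ± 0.11 (adjusted p = 8.4e-05). EGF itself rose by 0.65 ± 0.05 (adjusted p = 6.83e-07), and HBEGF rose by 0.52 ± 0.096 (adjusted p = 0.00335). The receptor EGFR was at 7.73, 7.78 and 7.78 in the MPA arrays, against 7.03, 7.05 and 6.89 in the vehicle arrays, a rise of 0.77 ± 0.049 (adjusted p = 1.04e-07) with no overlap. ERBB3, the brightest uncalled member, differed by -0.067. Inhibitors that damp such receptors moved as well, with 4 of 22 raised and 2 lowered. SPRY4, a sprouty inhibitor of the RAS pathway, was at 7.15, 7.33 and 7.37 in the MPA arrays, against 6.20, 6.01 and 5.84 in the vehicle arrays, a change of 1.27 ± 0.091 (adjusted p = 3.75e-07). LRIG1, which lowers ERBB receptor levels, averaged 9.67 ± 0.021 with MPA and 8.65 ± 0.072 with vehicle and rose by 1.01 ± 0.049. ERRFI1, an inhibitor of the EGFR kinase, rose by 0.84 ± 0.053, and SPRY2 by 0.49 ± 0.082. CISH, an inhibitor of STAT signalling, fell by 0.34 (adjusted p = 0.000144), and the other lowered member, TRIB2, lost its call without MPA 2, MPA 3, vehicle 2 or vehicle 3, where 1 lowered member was left. The MAP kinase phosphatases DUSP1, DUSP8 and DUSP16 rose by 0.49 ± 0.059, 0.34 ± 0.071 and 0.27 ± 0.05. IRS2, an adaptor of the insulin and IGF receptors, was at 6.90, 7.07 and 7.12 in the MPA arrays, against 6.16, 6.12 and 6.08 in the vehicle arrays. It rose by 0.91 ± 0.071 (adjusted p = 9.28e-07), whereas IRS1 differed by 0.12 and was not called (adjusted p = 0.434).

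G protein-coupled receptors counted 12 of 198 raised and 5 lowered, and 114 of the 198 were under the array medians in both groups. F2R, the thrombin receptor, was at 6.86, 6.93 and 6.91 in the MPA arrays, against 5.48, 5.51 and 5.29 in the vehicle arrays, a rise of 1.47 ± 0.083 (adjusted p = 3.12e-08). LPAR3, a receptor of lysophosphatidic acid, averaged 6.50 ± 0.17 with MPA and 5.67 ± 0.091 with vehicle and rose by 0.83 ± 0.11 (adjusted p = 0.000288). ACKR3, an atypical receptor that takes up the chemokine CXCL12, was at 6.12, 5.92 and 6.22 in the MPA arrays, against 5.34, 5.50 and 5.22 in the vehicle arrays. It rose by 0.73 ± 0.096 (adjusted p = 0.000164). CXCR4, the signalling receptor of the same chemokine, moved the other way, at 4.17, 4.45 and 4.68 in the MPA arrays, against 5.18, 5.16 and 5.27 in the vehicle arrays. Its groups did not overlap, with a fall of 0.77 (adjusted p = 0.000679), while CXCL12 lay near the medians (3.74 with MPA and 3.88 with vehicle) and was not called. OXTR, the oxytocin receptor, fell by 0.34 (adjusted p = 0.00797). Among cytokine receptors, IL6R rose by 0.57 ± 0.061 and PRLR, the prolactin receptor, by 0.32 ± 0.049.

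Developmental pathways showed members on both sides. WNT pathway genes counted 4 of 53 raised (7.55%) and 1 lowered (1.89%), beside 4.17% and 1.87% over all genes. The raised members were all nuclear effectors or receptors. LEF1, a transcription factor of the pathway, was at 6.70, 6.85 and 6.77 in the MPA arrays, against 5.68, 5.55 and 5.80 in the vehicle arrays, a rise of 1.10 ± 0.074 (adjusted p = 1.99e-07) with no overlap. The frizzled receptors FZD5, FZD8 and FZD1 rose by 0.64 ± 0.081, 0.58 ± 0.09 and 0.55 ± 0.061. The 1 lowered member, the inhibitor SOSTDC1, lost its call without MPA 1, vehicle 2 or vehicle 3. The NOTCH pathway counted 2 of 42 raised (4.76%) and 2 lowered (4.76%), with a median of 0.018. JAG1, a ligand, rose by 0.62 ± 0.12 and the receptor NOTCH2 by 0.66 ± 0.046. The receptor NOTCH3 fell by 0.24 (adjusted p = 0.0056), and HEY2, a repressor that NOTCH signals induce, was at 6.48, 6.52 and 6.67 in the MPA arrays, against 7.54, 7.64 and 7.51 in the vehicle arrays. HEY2 fell by 1.01 ± 0.089 (adjusted p = 3.35e-06), and its groups did not overlap. The TGF-beta and BMP pathway had 1 of 54 members raised and 5 lowered (9.26%), of which 3 falls held with each array left out, and a median of 0.025. BMP4, a ligand, was at 4.08, 3.91 and 4.10 in the MPA arrays, against 4.76, 4.70 and 4.73 in the vehicle arrays, a fall of 0.70 (adjusted p = 9.15e-07). BAMBI, a decoy receptor, was at 8.82, 8.59 and 8.66 in the MPA arrays, against 9.30, 9.37 and 9.30 in the vehicle arrays, a fall of 0.63 (adjusted p = 1.96e-06). Neither gene's groups overlapped. GDF15 fell by 0.24 (adjusted p = 0.00646), and BMP7 and SOSTDC1 lost their calls without MPA 1, vehicle 2 or vehicle 3, where 3 lowered members were left. SMAD9, the raised member, was called in none of the 6 fits that leave out an array, and the raised count was 0 without MPA 2, MPA 3, vehicle 1, vehicle 2 or vehicle 3. Among Hippo pathway genes 6 of 28 rose, among them WWC1 at 0.71 ± 0.063, VGLL1 at 0.34 ± 0.045 and TEAD3 at 0.35 ± 0.07, and 2 fell, with TAOK3 at -0.38 ± 0.068. Without vehicle 2 the raised count was 3, and without MPA 2, vehicle 1 or vehicle 3 the lowered count was 1. The ligands FGF18, at 3.90 with MPA and 3.23 with vehicle, and PDGFD moved in opposite directions, by 0.66 and -0.67. KITLG, the ligand of the KIT receptor, fell by 0.55 (adjusted p = 6.31e-05).

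Actin-binding and myosin genes had 6 of 86 raised and 0 lowered (1 without vehicle 2). CALD1 (caldesmon) was at 4.04, 4.34 and 4.24 in the MPA arrays, against 3.29, 3.13 and 3.09 in the vehicle arrays, so that vehicle lay under the array medians, and it rose by 1.04 ± 0.072 (adjusted p = 2.4e-07). PDLIM1 rose by 0.84 ± 0.054, MYO1E by 0.48 ± 0.046 and VASP, which extends actin filaments, by 0.42 ± 0.051. AKAP13, an anchoring protein for protein kinase A, averaged 9.15 ± 0.085 with MPA and 7.88 ± 0.11 with vehicle and rose by 1.27 ± 0.068 (adjusted p = 1.83e-08).

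Genes of the cell surface are given by function, from guidance and junctions to adhesion, transport and matrix. Axon guidance genes, many of which also act in epithelia, counted 9 of 53 raised (17%) and 0 lowered, with a median of 0.043. Of these 9 increases, 5 held with each array left out, and the raised count was 7 or 8 in those fits. Beside UNC5B, the semaphorin and VEGF co-receptor NRP1 rose by 0.57 ± 0.049, and the ephrins EFNA4 and EFNA5 by 0.45 ± 0.062 and 0.43 ± 0.065. Tight junction genes counted 4 of 45 raised and 0 lowered (median -0.013). Those raised included CLDN8, at 7.62, 7.60 and 7.49 in the MPA arrays, against 5.60, 5.68 and 5.38 in the vehicle arrays, MARVELD3 at 0.40 ± 0.065 and CLDN7 at 0.18 ± 0.037. CLDN1, the brightest uncalled member of that list, differed by -0.013. Cadherins and protocadherins counted 2 of 42 raised and 0 lowered (1 without vehicle 1). The protocadherin PCDH7 was at 7.04, 7.11 and 7.17 in the MPA arrays, against 5.87, 5.78 and 5.83 in the vehicle arrays, a rise of 1.28 ± 0.061 (adjusted p = 7.87e-09) with no overlap. Among immunoglobulin-like and leucine-rich adhesion proteins, 4 of 70 fell and 1 rose. NRCAM, CEACAM5 and LRRN2 fell by 0.52, 0.42 and 0.40 beside AMIGO2, and ALCAM rose by 0.26 ± 0.045. AQP3, a channel for water and glycerol, was at 7.36, 7.48 and 7.41 in the MPA arrays, against 6.04, 5.67 and 6.01 in the vehicle arrays. It rose by 1.51 ± 0.11 (adjusted p = 4e-07). ATP13A4, a P-type ATPase, rose by 1.0 ± 0.091 and STEAP4, a metal reductase, by 0.81 ± 0.069. Of 11 metallothioneins, 2 rose and 0 fell, with MT2A at 0.70 ± 0.046 and MT1F at 0.33 ± 0.057. Of 21 solute carriers measured here, limma called 0, and 2 had an unadjusted p under 0.05. P3H2, a hydroxylase of collagen, was at 4.73, 4.30 and 4.76 in the MPA arrays, against 3.11, 3.08 and 3.33 in the vehicle arrays. Its vehicle arrays lay under the array medians, and the change was 1.42 ± 0.14 (adjusted p = 8.16e-06). THBS1, the matrix protein thrombospondin, averaged 9.49 ± 0.038 with MPA and 8.20 ± 0.071 with vehicle and rose by 1.29 ± 0.052 (adjusted p = 1.75e-09). Of 61 proteoglycan and heparan sulfate genes 3 rose (5 without MPA 1) and 2 fell. The heparan sulfate enzymes HS6ST3 and GLCE fell by 0.42 (adjusted p = 0.000409) and 0.39 (adjusted p = 0.000742), and the carrier protein SDC1 rose by 0.31 ± 0.05.

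Lipid metabolism had the most raised genes among the metabolic functions. Of 44 genes of fatty acid activation, synthesis and storage, 10 rose (22.7%) and 1 fell, and 7 of the increases held with each array left out. ACSL1, which activates long-chain fatty acids, was at 9.20, 9.17 and 9.14 in the MPA arrays, against 7.63, 7.68 and 7.57 in the vehicle arrays. It rose by 1.54 ± 0.05 (adjusted p = 1.72e-10). THRSP, a lipogenic regulator, was at 5.44, 6.24 and 6.54 in the MPA arrays, against 4.99, 5.10 and 5.04 in the vehicle arrays. Its MPA arrays varied more widely than its vehicle arrays, which all lay below them (1.03 ± 0.19 (adjusted p = 0.00327)). FADS1 and ELOVL5, which desaturate and lengthen fatty acids, rose by 0.46 ± 0.066 and 0.40 ± 0.05, SCD by 0.26 ± 0.042 and the droplet protein PLIN3 by 0.38 ± 0.074. ACACB, whose product holds back fatty acid oxidation, fell by 0.34 (adjusted p = 0.000505), and ACLY differed by -0.0033 without a call. FASN passed the test at 0.17 (adjusted p = 0.0439) but lost its call without any 1 of MPA 1, MPA 2, MPA 3, vehicle 1 or vehicle 2. Genes of fatty acid oxidation and lipolysis counted 8 of 27 raised (29.6%) and 0 lowered, with a median of 0.11, and 5 raised without MPA 3. Of the 8 increases, 4 held with each array left out and are given with their changes below. The raised members that did not hold were ACOT2, ABHD6, ECI1 and ECI2. ACOT6, an acyl-CoA thioesterase, was at 5.32, 5.56 and 5.28 in the MPA arrays, against 3.70, 4.14 and 4.18 in the vehicle arrays. It rose by 1.38 ± 0.12 (adjusted p = 3.1e-06), and the groups did not overlap. The carnitine acyltransferases CRAT and CROT rose by 0.44 ± 0.067 and 0.43 ± 0.059 and ACOT7 by 0.39 ± 0.063. CPT1A, the gatekeeper of mitochondrial fatty acid import, differed by -0.06 and was not called.

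**Figure D4:**
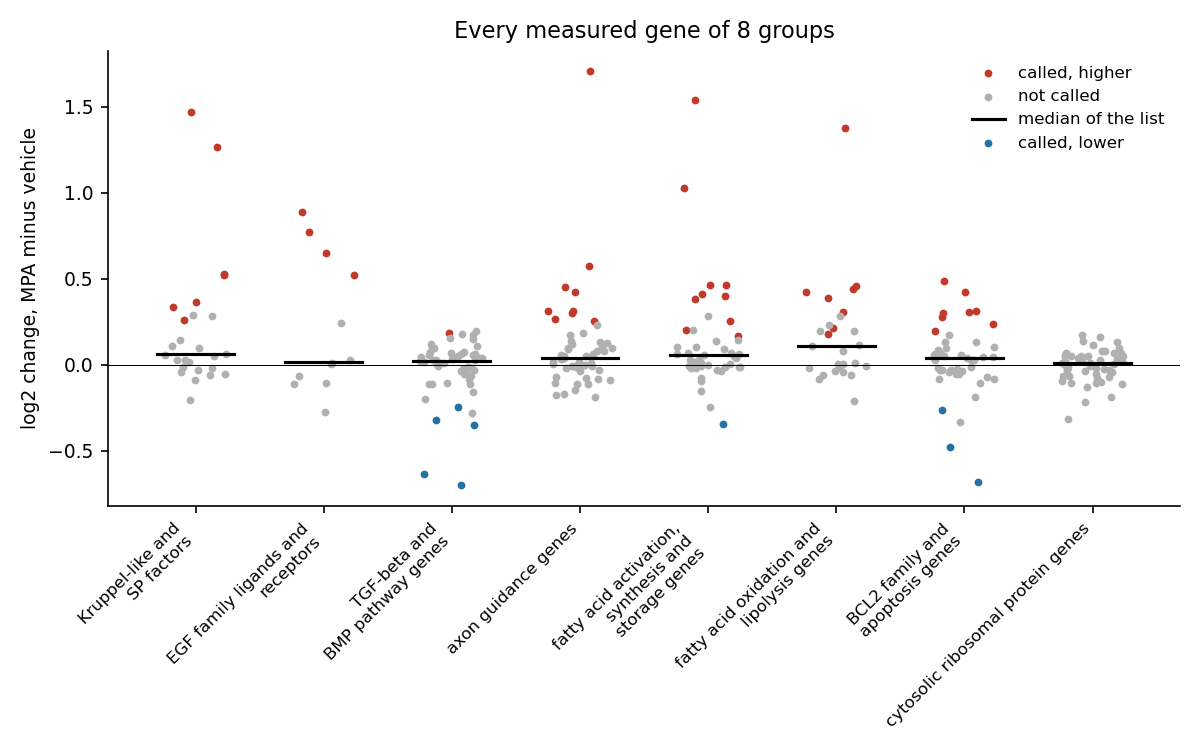
Change, MPA minus vehicle (log2, vertical axis), of every measured gene of 8 functional groups; red points rose, blue points fell, grey points were not called and black lines are group medians. The fatty acid oxidation and lipolysis genes have the highest median of these groups (0.11), and the cytosolic ribosomal protein genes lie around 0.

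Phospholipid and eicosanoid genes counted 9 of 49 raised, and none of the 3 lowered members held with each array left out (1 without MPA 1 or vehicle 2, 0 without MPA 3 or vehicle 1). PISD, which makes phosphatidylethanolamine in mitochondria, was at 6.97, 6.97 and 7.06 in the MPA arrays, against 6.05, 6.03 and 6.04 in the vehicle arrays, a rise of 0.96 ± 0.058 (adjusted p = 6.76e-08). The kinases of ethanolamine and choline ETNK2 and CHKA rose by 0.73 ± 0.051 and 0.38 ± 0.06. ALOX5AP, which feeds leukotriene synthesis, rose by 0.82 ± 0.096 to a mean of 4.30 with MPA and 3.48 with vehicle, and HPGD, which degrades prostaglandins, by 0.63 ± 0.066. SGMS1, which makes sphingomyelin, rose by 0.48 ± 0.051 beside SGPP2. Sterol synthesis and uptake genes counted 2 of 24 raised (8.33%) and 1 lowered (4.17%), with a median of 0.05. SCAP and DHCR7 rose by 0.30 ± 0.054 and 0.18 ± 0.036 and INSIG2, which holds SCAP back, fell by 0.41 (adjusted p = 0.000953). The measured sugar and energy genes changed little, but most of those listed were not measured. There were 17 of 43 measured for glycolysis and gluconeogenesis and 39 of 180 for oxidative phosphorylation. Limma called 0 of 17 glycolysis and gluconeogenesis genes, with 1 at an unadjusted p under 0.05, and 1 raised and 1 lowered of 39 oxidative phosphorylation genes, of which neither held with each array left out. Without vehicle 3, 1 glycolysis gene was called higher. GLUL, glutamine synthetase, was at 9.86, 10.01 and 9.97 in the MPA arrays, against 9.0, 9.04 and 9.07 in the vehicle arrays, a rise of 0.91 ± 0.047 (adjusted p = 1.43e-08). Nucleotide synthesis genes counted 1 of 31 raised (3.23%) and 3 lowered (9.68%), of which 2 falls held with each array left out. In purine synthesis, PPAT, the first enzyme, fell by 0.36 (adjusted p = 0.00504) and ATIC by 0.23 (adjusted p = 0.00275), whereas IMPDH1, of the guanine branch, rose by 0.43 ± 0.057. UGDH, which makes UDP-glucuronate, rose by 0.57 ± 0.047, and the carbonic anhydrase CA2 by 0.73 ± 0.049.

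Genes of cell survival moved in both directions, on both sides of the apoptosis balance. BCL2, which blocks apoptosis, was at 8.32, 8.35 and 8.31 in the MPA arrays, against 9.02, 9.04 and 8.96 in the vehicle arrays. It fell by 0.68 ± 0.04 (adjusted p = 4.35e-08), with no overlap. BCL2L1, its close relative with the same role, was at 9.75, 9.81 and 9.71 in the MPA arrays, against 9.30, 9.28 and 9.22 in the vehicle arrays and rose by 0.49 ± 0.043 (adjusted p = 2.76e-06). MCL1, a further survival member, rose by 0.28 ± 0.042. Members that promote death also rose, PMAIP1 by 0.42 ± 0.07, BMF by 0.32 ± 0.055, BNIP3 by 0.31 ± 0.053 and BNIP3L by 0.30 ± 0.063, while the death-associated kinase DAPK1 fell by 0.48 (adjusted p = 0.000294). In all, 8 of 45 rose and 3 fell. Of 26 genes known to be induced by low oxygen, 6 rose and 1 fell (2 without MPA 1), and the raised ones include genes that other signals also induce. NDRG1, a stress and differentiation gene, was at 7.01, 6.03 and 6.40 in the MPA arrays, against 4.93, 5.17 and 4.89 in the vehicle arrays. It rose by 1.48 ± 0.17 (adjusted p = 5.76e-05), and all MPA arrays lay above all vehicle arrays. DDIT4, an inhibitor of the growth kinase mTORC1, rose by 0.89 ± 0.054 (adjusted p = 8.12e-08), and the histone demethylase KDM4B by 0.89 ± 0.11, whereas VEGFA differed by -0.027 and was not called.

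G1 to S phase and cyclin genes counted 4 of 60 raised (6.67%) and 3 lowered (5%), with a median of 0.0033. The raised count was 2 without MPA 3 or vehicle 1. The lowered members RBL2, CCNG2 and CCNB1 did not hold, since 1 was left without MPA 1 and 0 without MPA 2, MPA 3, vehicle 1 or vehicle 3. CCNE2, a cyclin of the G1 to S step, rose by 0.41 ± 0.055 (adjusted p = 0.000208) and E2F1, a transcription factor of the same step, by 0.36 ± 0.061 (adjusted p = 0.00166). DNA replication genes counted 5 of 35 raised and 0 lowered, with 2 held, DTL at 0.20 ± 0.039 and CDC7 at 0.22 ± 0.046, and their number was 2 without MPA 3 and 3 without vehicle 1 or vehicle 2. Mitosis genes counted 1 of 74 raised, BUB3, and 4 lowered, of which PLK2, at -0.30 ± 0.056, held. Their lowered count was 1 without MPA 1, MPA 3 or vehicle 1 and 2 without vehicle 2 or vehicle 3, and the raised count was 2 without vehicle 1. Limma called 0 of 51 cytosolic ribosomal protein genes and 0 of 50 translation factors and tRNA synthetases, with 7 and 5 at an unadjusted p under 0.05. Without MPA 2, 1 ribosomal protein gene was called higher and 1 translation gene lower, and without vehicle 2 the raised translation genes numbered 2. Nucleolar and ribosome biogenesis genes counted 0 of 68 raised and 5 lowered, with a median of -0.057, and 0 of the 5 held, since 2 were left without MPA 1, 0 without vehicle 1 and 3 without vehicle 2 or vehicle 3. At an unadjusted p under 0.05 there were 26 of these 68, beside 2589 of all 14841 probe sets. Ubiquitin ligases counted 12 of 183 raised, led by HECTD3 at 0.70 ± 0.064, and 3 lowered, a number that was 1 without vehicle 1 and 0 without vehicle 3. HERC3, HERC5 and HERC6, neighbours among the measured genes of chromosome 4, rose by 0.44 ± 0.049, 0.40 ± 0.083 and 0.37 ± 0.076. CPEB4, which controls translation through the poly(A) tail, rose by 0.75 ± 0.061 (adjusted p = 1.39e-06).

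The microRNA genes MIR21 and MIR29C rose and MIR181B1 fell. These are the 3 called microRNA genes above the array medians that held with each array left out. Mature sequences of these genes, for MIR21 the 5p form alone, are shown because they are regulatory products. They are from RefSeq (GRCh38.p14), written 5′ to 3′ with the seed, bases 2 to 8, in capitals.
hsa-miR-21-5p: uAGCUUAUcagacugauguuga
hsa-miR-29c-3p: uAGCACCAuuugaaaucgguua
hsa-miR-29c-5p: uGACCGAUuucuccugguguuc
hsa-miR-181b-5p: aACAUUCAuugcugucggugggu
hsa-miR-181b-3p: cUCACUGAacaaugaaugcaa
No 2 of these 5 share a seed. MIR21, on chromosome 17 (chr17:59841273-59841294, plus strand, for miR-21-5p), gives a microRNA known to be abundant in breast cancer cells. It was at 9.07, 9.08 and 8.82 in the MPA arrays, against 7.57, 7.49 and 7.45 in the vehicle arrays, a rise of 1.49 ± 0.084 (adjusted p = 3.12e-08) with no overlap. MIR29C, on the minus strand of chromosome 1, gives a member of the miR-29 family, which is known to target collagen messages. Its levels were 8.48, 8.62 and 8.60 in the MPA arrays, against 7.68, 7.42 and 7.46 in the vehicle arrays, and it rose by 1.05 ± 0.10 (adjusted p = 1.2e-05). MIR181B1, on the minus strand of chromosome 1, was at 8.11, 8.05 and 7.98 in the MPA arrays, against 8.72, 8.51 and 8.82 in the vehicle arrays. It fell by 0.64 ± 0.081 (adjusted p = 0.000126), and its host transcript MIR181A1HG, at 6.88 ± 0.13 with MPA and 7.55 ± 0.044 with vehicle, fell by 0.67 (adjusted p = 0.000634). VMP1, the gene that overlaps MIR21 on the same strand, averaged 12.17 ± 0.046 with MPA and 12.05 ± 0.08 with vehicle, differed by 0.12 and was not called (adjusted p = 0.24). A probe set of a microRNA gene cannot tell the mature form from its longer precursors. Of 689 microRNA genes 14 were called, 9 higher and 5 lower, and 432 of the 689 were under the medians in both groups. The raised count was 5 without MPA 1, 19 without MPA 2 and 4 without vehicle 1 or vehicle 2, and the lowered count was 1 without MPA 1, 3 without vehicle 2 and 2 without vehicle 3.

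Among other non-coding genes, 15 of 1294 long non-coding RNAs rose and 9 fell, beside 4.17% raised and 1.87% lowered over all genes. Antisense RNAs counted 4 of 457 raised (0.875%) and 3 lowered (0.656%). LINC RNAs counted 4 of 427 raised (0.937%) and 0 lowered over all arrays. Under the array medians in both groups were 272 of the 457 antisense and 337 of the 427 LINC RNAs, where a change is hard to read. ARHGEF26-AS1, antisense to ARHGEF26, rose by 0.64 ± 0.09 (adjusted p = 0.000345), beside its partner at 0.96 ± 0.05, and the sources used here do not say whether the probe sets tell the strands apart. PA2G4P4, a transcribed pseudogene, rose by 0.74 ± 0.12 (adjusted p = 0.00138), and LINC00886, its neighbour, rose by 0.61 ± 0.12 (adjusted p = 0.00525). On the other side of LINC00886 lies TIPARP, a mono-ADP-ribosyltransferase, which rose by 1.06 ± 0.068 (adjusted p = 1.21e-07). DSCAM-AS1, a long non-coding RNA of estrogen receptor-positive breast cancer, averaged 10.62 ± 0.078 with MPA and 10.96 ± 0.10 with vehicle and fell by 0.34 ± 0.057 (adjusted p = 0.00165).

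Genes next to each other among the measured genes of a chromosome sometimes changed together. Genes with no named probe set can lie between such neighbours. Of 14337 pairs of adjacent measured genes, both members changed in 88 pairs, 68 with the same direction and 20 with opposite directions. Over all genes 4.17% rose and 1.87% fell, so some such pairs, more often rises, arise whatever the position of the genes. How many was not computed, and the counts are a description without a test. On chromosome 6, RMND1, which acts in mitochondrial translation, CCDC170 and ESR1 follow one another among the measured genes. RMND1 was at 7.53, 7.48 and 7.52 in the MPA arrays, against 8.03, 8.19 and 8.29 in the vehicle arrays. CCDC170 was at 5.54, 5.33 and 5.39 in the MPA arrays, against 6.12, 5.97 and 6.03 in the vehicle arrays. Both fell without overlap, by 0.66 (adjusted p = 3.92e-06) and 0.62 (adjusted p = 2.12e-05), next to ESR1 at -0.77. On chromosome 12, AMIGO2 and PCED1B are neighbours and both fell. On chromosome 13, KL, which encodes the anti-ageing co-receptor klotho, rose by 0.91 ± 0.057 (adjusted p = 1.04e-07), next to STARD13, a lipid-binding START domain protein, which rose by 0.51 ± 0.071. On chromosome 16, PLLP, a membrane protein of myelin and epithelia, was at 5.55, 5.81 and 5.82 in the MPA arrays, against 4.28, 4.46 and 4.14 in the vehicle arrays. It rose by 1.43 ± 0.09 (adjusted p = 1.01e-07), and its neighbour ARL2BP rose by 0.43 ± 0.052. Also on chromosome 16, KIAA0513 rose by 0.89 ± 0.059 while CRISPLD2, next to it among the measured genes, fell by 0.53. These pairs were chosen after their values were seen.

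The other compounds were compared with MPA at the same dose and time. Relative to the mean of PROG, DHT and DEX, 525 of 14841 probe sets differed with MPA (3.54%), 356 higher and 169 lower, in a contrast that sets no vehicle level against MPA, although the vehicle arrays share in its estimate of the spread. With the 12 arrays of the compounds alone, 461 differed. The largest differences were RANBP3L at 1.51 ± 0.079 (adjusted p = 9.64e-08), ZBTB7C at 1.45 ± 0.098 (adjusted p = 7.88e-07), SGPP2 at 1.38 ± 0.09 (adjusted p = 7.39e-07), UNC5B at 1.31 ± 0.065 (adjusted p = 6.47e-08) and GREB1L at 1.20 ± 0.071 (adjusted p = 2.62e-07). A difference from that mean can rest on DHT and DEX alone, so the difference from PROG is given too. MPA minus PROG was 1.42 ± 0.097 (adjusted p = 1.25e-05) for RANBP3L, 0.66 ± 0.11 (adjusted p = 0.0205) for SGPP2 and 0.47 ± 0.087 (adjusted p = 0.038) for GREB1L. For ZBTB7C it was 0.22 ± 0.12 (adjusted p = 0.657) and did not pass. UNC5B was at 8.20, 8.16 and 8.12 with MPA, 7.18, 7.57 and 7.25 with PROG, 6.63, 6.77 and 6.71 with DHT and 6.59, 6.44 and 6.49 with DEX. PROG was the nearest of the 3 and still did not overlap with MPA, with a difference of 0.83 ± 0.08 (adjusted p = 0.000255) between MPA and PROG. ATP13A4 was at 6.14, 6.33 and 6.23 with MPA, against 5.31, 5.45 and 5.14 with PROG, 5.21, 5.46 and 5.24 with DHT and 5.36, 5.09 and 5.11 with DEX, and MPA minus PROG was 0.93 ± 0.091 (adjusted p = 0.000255). ACOT6 had overlapping levels in both progestin groups, 5.32, 5.56 and 5.28 with MPA and 5.51, 5.26 and 5.47 with PROG, and a difference of -0.027 ± 0.12 (adjusted p = 0.98), which did not pass. Lower with MPA than the mean of the other compounds were HEY2 at -0.74 ± 0.073 (adjusted p = 2.26e-05), AMIGO2 at -0.67 ± 0.084 (adjusted p = 0.000216), POU2AF3 at -0.56 ± 0.091 (adjusted p = 0.0025) and BMP4 at -0.44 ± 0.044 (adjusted p = 3.41e-05). Of these, MPA minus PROG passed for AMIGO2 at -0.55 ± 0.10 (adjusted p = 0.0383) and BMP4 at -0.38 ± 0.054 (adjusted p = 0.00743), and did not pass for HEY2 at -0.32 ± 0.089 (adjusted p = 0.242) and POU2AF3 at -0.44 ± 0.11 (adjusted p = 0.165). ESR1 stood at 7.29, 7.25 and 7.31 with MPA, 7.64, 7.53 and 7.41 with PROG, 7.72, 7.80 and 7.73 with DHT and 7.81, 7.95 and 7.80 with DEX, a difference of -0.43 ± 0.053 (adjusted p = 0.000205) from their mean, and MPA minus PROG, at -0.24 ± 0.065 (adjusted p = 0.206), did not pass. EPGN was not called in this test, with a difference of -0.17 ± 0.088 (adjusted p = 0.406). Its change against the shared vehicle arrays was 0.89 with MPA, 0.72 with PROG, 0.73 with DHT and 1.72 with DEX.

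**Figure D5:**
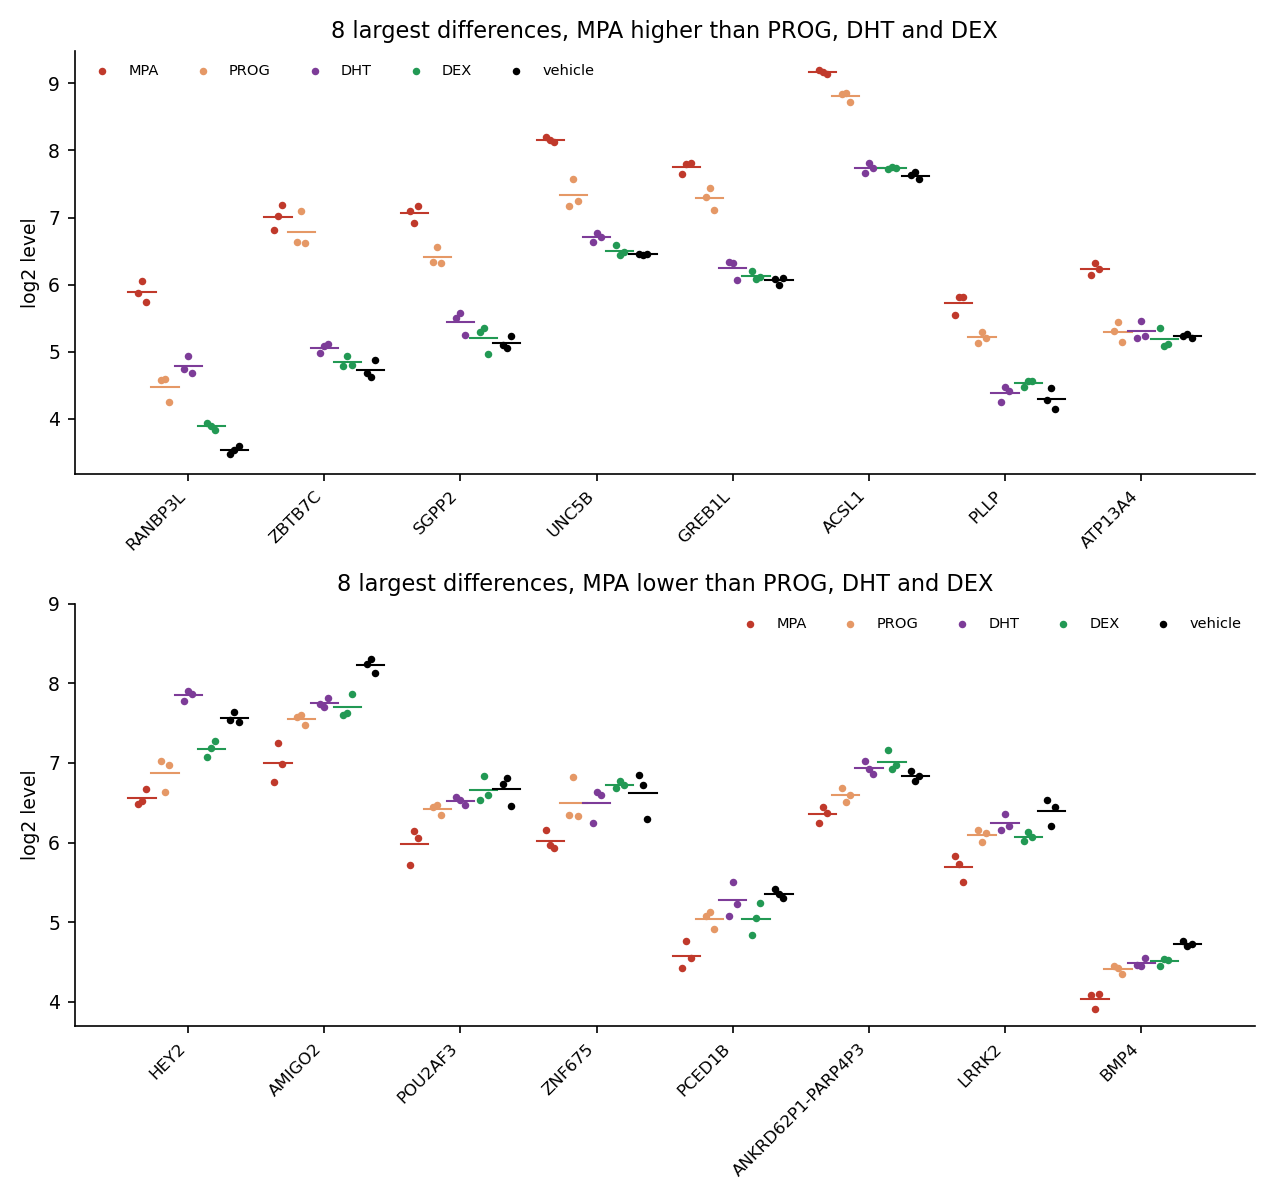
Level on each array (log2, vertical axis) of 8 genes highest (upper panel) and 8 lowest (lower panel) with MPA relative to the mean of PROG, DHT and DEX; points are arrays, 3 per group, lines are group means, and groups run MPA, PROG, DHT, DEX and vehicle from left to right. For ATP13A4 the 3 MPA arrays lie above all other arrays plotted.

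Promoters were searched for the DNA element of this receptor family in windows from 250 bases before to 50 bases after the transcription start (RefSeq, GRCh38.p14). A gene can have several windows, and at least 1 was matched for 479 of the 599 raised genes, 223 of the 269 lowered genes and 10661 of the 14361 genes tested. The core ACANNNTGT, which is its own reverse complement and covers both strands, lay in 38 of 736 windows of raised genes (5.16%), 9 of 191 windows of genes raised at least 1.5-fold (4.71%), 15 of 330 windows of lowered genes (4.55%) and 579 of 14780 windows of all genes tested (3.92%). The half-site TGTTCT, or AGAACA on the other strand, which can overlap the core, lay in 81 of 736 windows of raised genes (11%), 27 of 330 of lowered genes (8.18%) and 1640 of 14780 of all genes (11.1%). The window of ACOT6 is shown because ACOT6 rose most among genes that hold the core, and that of EPGN because its core overlaps a half-site. The half-site of EPGN, TGTTCT, begins with the last fixed bases of the core and is not a separate element. The fixed bases of the core are in capitals.
ACOT6 (chr14:73610695-73610994, plus strand): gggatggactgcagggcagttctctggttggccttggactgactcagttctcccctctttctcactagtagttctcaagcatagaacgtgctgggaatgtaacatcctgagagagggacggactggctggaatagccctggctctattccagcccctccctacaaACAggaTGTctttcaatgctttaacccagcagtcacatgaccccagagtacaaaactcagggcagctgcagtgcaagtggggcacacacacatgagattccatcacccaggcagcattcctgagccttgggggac
EPGN (chr4:74308220-74308519, plus strand): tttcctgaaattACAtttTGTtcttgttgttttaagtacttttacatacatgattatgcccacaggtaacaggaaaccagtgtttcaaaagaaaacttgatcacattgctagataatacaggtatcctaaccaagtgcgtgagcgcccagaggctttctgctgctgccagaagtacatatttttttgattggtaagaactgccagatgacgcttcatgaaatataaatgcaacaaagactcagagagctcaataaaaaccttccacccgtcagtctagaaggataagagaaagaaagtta
A match describes letters in the window and is not a measured binding site.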

How the data were processed

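Per the labels' protocols, total RNA of ZR-75-1 cells was amplified, labelled and measured on Affymetrix arrays. The deposited values are log2 expression levels with 2 decimals, 1 column per array. The authors used Partek and RMA, per the submitters' processing notes, with versions and settings not given in the sources used here. Groups came from the sample titles.

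Values were used as deposited, with no filter. limma 3.58.1 in R 4.3.3 (lmFit, eBayes) fitted 5 group means over all 15 arrays (10 residual and 3.81 prior degrees of freedom), 2-sided, with Benjamini-Hochberg adjustment over 14841 probe sets in each contrast and a threshold of 0.05. The code was tested on simulated data. A gene is its probe set of highest mean over the 15 arrays.

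The genes to name were the 15 largest changes in each direction among protein-coding genes with groups apart, up to 5 called members of each list in each direction, up to 5 non-coding genes in each direction, the 10 largest differences from the other compounds in each direction, the brightest uncalled member of a list and single genes of steroid response. Most genes printed are those whose call held with each array left out. Some neighbouring genes and further called list members were named after their values were seen. The comparison and the 128 lists, 125 with a measured member, were chosen with earlier results of these data known. Alternatives left out arrays, dim probe sets or unused groups, added a replicate block, another normalization or the unnamed probe sets, or changed limma's prior and weights. Microarray intensities carry no counts, so no depth is given.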

Additional observations from a re-analysis of the deposited data

Results flagged for a closer look

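OLR1, a receptor for oxidised lipoprotein, passed the test in opposite directions with MPA and with DHT. Its levels were 4.87, 4.99 and 5.07 with MPA, 5.99, 5.92 and 6.02 with DHT and 5.25, 5.33 and 5.22 with vehicle. Against vehicle it fell by 0.29 with MPA (adjusted p = 0.0433) and rose by 0.71 with DHT (adjusted p = 0.000245), and MPA minus DHT was -1.0 (adjusted p = 1.83e-06). The fall with MPA lost its call without MPA 1, MPA 2, vehicle 1, vehicle 2 or vehicle 3.

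Probe sets with no gene symbol here also changed with MPA. In limma's fit over all deposited probe sets, 567 of these 20037 passed the test, 175 of them lower and the rest higher, and 120 of them changed by at least 1.5-fold. Which genes they measure was not analysed here.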

How the results depend on the processing

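Leaving out each MPA or vehicle array in turn gave 674 to 855 changed probe sets, 487 to 594 raised and 176 to 261 lowered, against 880, 610 and 270 over all arrays. Without vehicle 1 the lowered count was 176. The count at 1.5-fold or more ranged from 159 to 178, against 168, and 164 of the 168 held with each array left out. For MPA against the other 3 compounds, leaving out each MPA array gave 366 to 453, against 525. A call required in all 6 fits with 1 array left out, a rule chosen after seeing the data, left 538 probe sets.

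With the 6 MPA and vehicle arrays alone, 526 probe sets changed, 400 up and 126 down. With all deposited probe sets tested, 1304 changed, 924 of them raised, and 288 passed at 1.5-fold or more, where more features are tested by construction. The replicate block gave 829 changed probe sets, and 455 against the other compounds. Deviations of same-numbered MPA and vehicle arrays from their group means correlated at -0.055, 0.051 and -0.036. Those of differently numbered arrays correlated at -0.052 to 0.081. The labels do not say whether same-numbered arrays were handled together, and these values cannot decide it. Quantile normalization moved the raised and lowered counts to 569 and 347 and median centring to 539 and 302, against 610 and 270. Over the named genes and all these alternatives pooled, 6220 of 7084 values kept their call or lack of one, 832 lost it, 32 gained it and 0 reversed. Of the 547 named genes, 424 were called in the main fit, and only these could lose a call. With the 6 MPA and vehicle arrays alone, 156 of the 547 lost it. The cause of these differences was not tested.

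The data are limited to 3 arrays per group and 1 cell line. The counts include 36 raised and 18 lowered genes with both means under the array medians, where a level is hard to read. The normalization would remove a change common to most genes. Gene symbols come from the platform table, and of the solute carriers, 21 have a named probe set here.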
